A study of Homo sapiens with 9 samples.

Results

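The set described here is the KMT2A fusion complex and its cofactors: KMT2A, MLLT3, MEN1, PSIP1, DOT1L, MLLT1, MLLT10, AFF1, AFF4 and CDK9. Its 10 genes were taken by symbol from a table of 56541 genes, and all 10 passed the filter on low counts in both comparisons. RNA was measured in MOLM-13, a human acute myeloid leukaemia line that carries a fusion of KMT2A to MLLT3, in 3 groups of 3 libraries. The shCONTROL group was RNA-seq of cells that carry a control hairpin. The shBCLAF1 group was RNA-seq of cells with hairpin RNA against BCLAF1, a nuclear protein that binds RNA. How many hairpins were used is not given in the labels. In the RIP group, BCLAF1 was immunoprecipitated from shCONTROL cells and the RNA bound to it was sequenced. All cells of all groups had 4 days of doxycycline at 200 ng/µL. RNA-seq samples came from 2000000 cells and RIP samples from 15000000. The labels name neither a mock precipitation nor separate cultures behind the replicates, so the p-values measure the spread between these libraries, which may be technical, and the reference of the RIP is total RNA.

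KMT2A methylates lysine 4 of histone H3 and maintains the expression of developmental genes, among them HOXA genes, in blood progenitors. In leukaemias with a KMT2A fusion, the N-terminal part of KMT2A, which binds menin (MEN1) and through it LEDGF (PSIP1), is joined to a partner such as MLLT3. The partner brings in transcription elongation machinery: the DOT1L complex, which methylates lysine 79 of histone H3 with MLLT10 as cofactor, and the super elongation complex, in which AFF1 or AFF4 is the scaffold, MLLT1 or MLLT3 reads acetylated histones, and the kinase CDK9 acts on paused RNA polymerase II. A count per gene holds reads of the fused and of the unfused alleles of KMT2A and MLLT3 together, so the fusion transcript could not be told apart from either gene.

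Totals ran from 25819144 to 36635268 estimated counts per library, and a gene of the set held between 368 counts (MLLT3 in shBCLAF1 replicate 3) and 23326 (DOT1L in RIP replicate 2). Levels are given as CPM, counts relative to library size after TMM scaling over the 9 libraries, without correction for transcript length, so they compare libraries and not genes. BCLAF1 itself was at 312 to 328 CPM in the controls, and fell to 99.97 to 125 after knock-down, which matched the labels. Its mRNA stood at 1034 to 1147 CPM in the RIP, which does not check the precipitation of the protein. The 6 leukaemia and monocyte markers were all present. Their sum was 1474 to 1583 CPM in shCONTROL, 3287 to 3682 after knock-down and 1063 to 1186 in the RIP. Most of the rise after knock-down was LYZ, whose mean went from 729 to 2639 CPM (log2 fold change 1.86). CD33 and SPI1 were also called higher (0.34 and 0.37), FLT3 was called lower (-0.18), and CSF1R and MPO were not called. In the RIP, FLT3 was higher (0.88), and LYZ (-3.97), MPO (-0.66) and CSF1R (-0.51) were lower. CD33 and SPI1 were not called there. In contrast to these 6 markers, all 4 erythroid markers were at 0 in all 9 libraries. So were CD3E, CD3G and TRBC2 of the T cell list and MS4A1 and PAX5 of the B cell list. The T cell list summed to 7.71 to 11.9 CPM over the 9 libraries, all of it CD3D, and the B cell list to 1.35 to 3.32. Mature myeloid markers moved with the knock-down: their summed level was 25.8 to 27.7 CPM in the controls against 124 to 141 after knock-down, with 13.0 to 28.3 in the RIP. Of the 5 that were tested 4 (S100A8, S100A9, CEBPE and CYBB) were called higher in shBCLAF1, as were 15.5% of all genes tested. ITGAM was not called, and its groups overlapped. CD14, the sixth, was at 0 in all libraries. Their part in the changes of the set was not tested. In bulk RNA, fewer cells of a type and less RNA per cell cannot be told apart.

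The comparison of shBCLAF1 with shCONTROL asks which RNAs change when BCLAF1 is depleted. KMT2A, MLLT3, PSIP1 and MLLT10 fell, to between 71.3% and 80.6% of the control, and no gene of the set rose. The other 6 genes did not pass the test. The threshold for a call was 0.05, on p-values of edgeR's quasi-likelihood test adjusted by Benjamini-Hochberg over 16961 genes, and 16.9% of all genes tested were called lower, 15.5% higher and 32.3% either way. The 4 calls of 10 thus stood close to the 32.3% background. The median log2 fold change of the set was -0.18, against 0.02 over all genes tested.

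**Figure D1:**
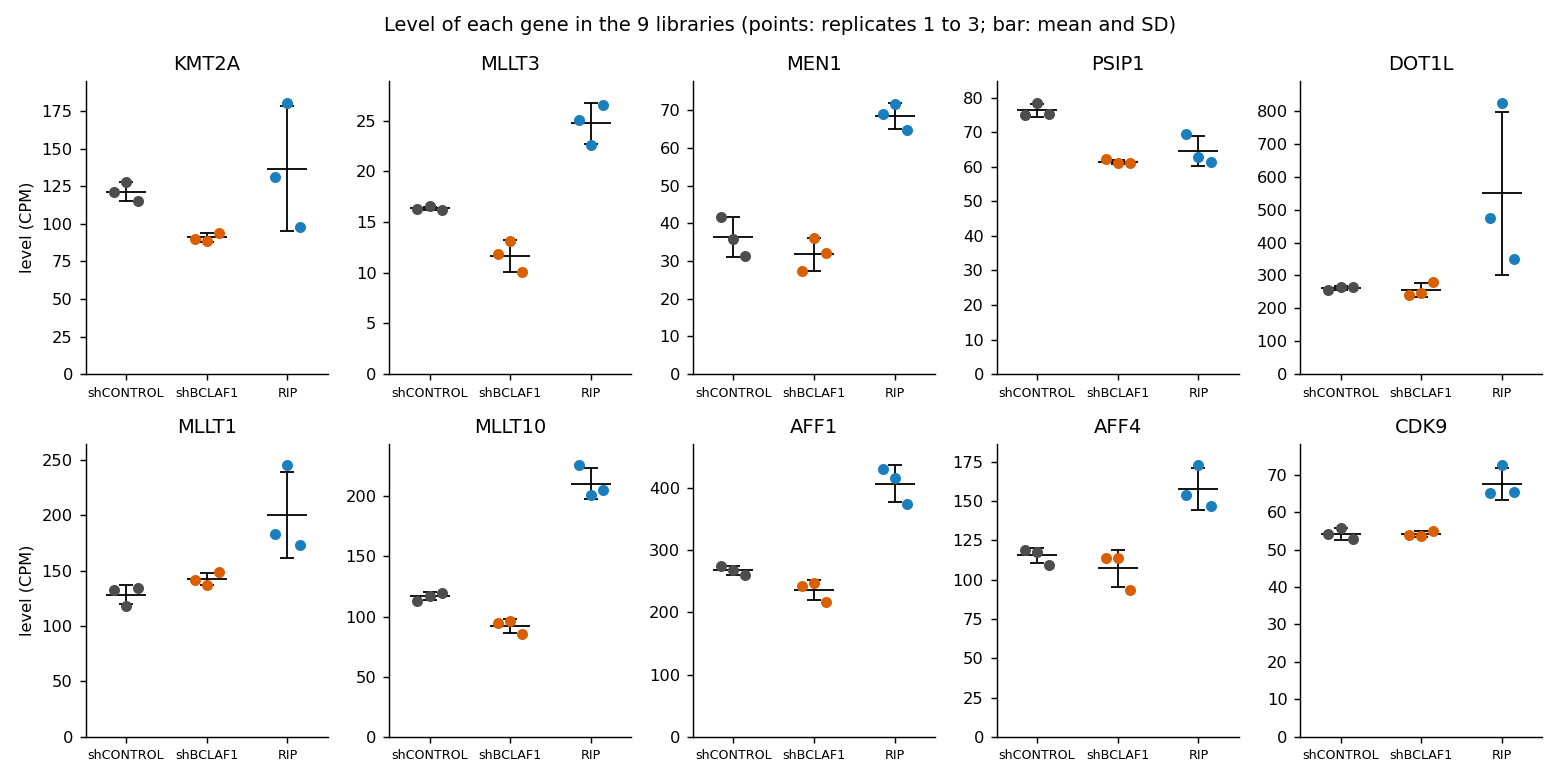
Level of each gene of the set (CPM, linear axis from 0, scales differ between panels) in the 3 shCONTROL, 3 shBCLAF1 and 3 RIP libraries; points are replicates 1 to 3 from left to right, and black bars show mean and SD. KMT2A, MLLT3, PSIP1, MLLT10 and AFF1 lie lower in all shBCLAF1 than in all shCONTROL libraries, as do 24.8% of all genes tested. MLLT1 lies higher, as do 24.5%. In the RIP KMT2A and DOT1L spread most, with replicate 2 highest.

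KMT2A (ENSG00000118058, chromosome 11, 118436492 to 118526832 of GRCh38.p14) was at 121, 128 and 115 CPM in shCONTROL replicates 1, 2 and 3 and at 90.05, 88.5 and 94.0 in shBCLAF1. Every shBCLAF1 library lay under every shCONTROL library. The group means were 121 ± 6.56 and 90.8 ± 2.85 CPM (SD, n = 3 each), or 74.9% of the control, a log2 difference of -0.41 (SE 0.05, adjusted p 0.00206). In a fit of all 9 libraries, in which the RIP libraries share the estimate of spread, the call of KMT2A was lost (adjusted p 0.199, at a log2 fold change of -0.42).

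MLLT3 (AF9, ENSG00000171843, chromosome 9, 20341669 to 20622499), which supplies the C-terminal part of the fusion, was at 16.3, 16.6 and 16.2 CPM in shCONTROL and at 11.8, 13.2 and 10.04 in shBCLAF1. The control libraries were nearly level, and the shBCLAF1 libraries all lay below them, with replicate 3 lowest. On the log2 scale this was a change of -0.48 (SE 0.11, adjusted p 0.0195), and 71.3% of the control level was left. Its call was lost in 4 of the 6 fits that left out 1 library, those without shCONTROL replicate 1, 2 or 3 or shBCLAF1 replicate 1 (adjusted p 0.0592, 0.0583, 0.0584 and 0.0533), at log2 fold changes of -0.47, -0.47, -0.48 and -0.49.

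KMT2A transcripts of both the fused and the unfused allele start at the KMT2A promoter. The MLLT3 window is the start of the MLLT3 gene and not of the fusion of KMT2A to MLLT3. The promoters of all 4 genes that fell are shown. Each is the RefSeq window (GRCh38.p14) from 250 bases before to 50 after the annotated gene start, 5′ to 3′ on the strand of the gene. Capitals mark GC boxes (GGGCGG) and CCAAT boxes (CCAAT) on either strand, which can overlap each other. The lines give KMT2A at chr11:118436242-118436541 (+), MLLT3 at chr9:20622450-20622749 (-), PSIP1 at chr9:15510921-15511220 (-) and MLLT10 at chr10:21533506-21533805 (+).
KMT2A: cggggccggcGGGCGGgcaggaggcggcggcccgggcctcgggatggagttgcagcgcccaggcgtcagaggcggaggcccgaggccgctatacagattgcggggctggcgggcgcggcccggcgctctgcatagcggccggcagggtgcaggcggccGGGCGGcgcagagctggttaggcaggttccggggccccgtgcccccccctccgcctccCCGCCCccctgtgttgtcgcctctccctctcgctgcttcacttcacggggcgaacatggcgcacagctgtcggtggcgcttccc
MLLT3: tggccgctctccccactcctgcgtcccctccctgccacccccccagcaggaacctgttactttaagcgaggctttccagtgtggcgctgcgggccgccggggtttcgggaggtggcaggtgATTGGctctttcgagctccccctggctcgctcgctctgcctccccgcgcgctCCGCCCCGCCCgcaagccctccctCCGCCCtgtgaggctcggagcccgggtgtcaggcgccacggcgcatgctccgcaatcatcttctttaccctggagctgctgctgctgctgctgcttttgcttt
PSIP1: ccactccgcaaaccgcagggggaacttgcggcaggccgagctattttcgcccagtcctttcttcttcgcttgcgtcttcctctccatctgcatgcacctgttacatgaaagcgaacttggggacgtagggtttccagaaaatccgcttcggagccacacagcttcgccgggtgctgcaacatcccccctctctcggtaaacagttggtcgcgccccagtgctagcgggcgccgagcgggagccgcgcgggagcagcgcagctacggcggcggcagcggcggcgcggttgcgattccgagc
MLLT10: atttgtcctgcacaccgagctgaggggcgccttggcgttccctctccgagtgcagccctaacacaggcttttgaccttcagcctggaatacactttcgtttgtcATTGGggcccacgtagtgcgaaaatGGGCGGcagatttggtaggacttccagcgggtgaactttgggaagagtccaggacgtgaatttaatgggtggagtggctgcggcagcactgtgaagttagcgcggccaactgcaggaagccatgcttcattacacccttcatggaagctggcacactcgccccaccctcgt
RefSeq gave 13 windows for 9 of the 10 genes and none that matched DOT1L. The KMT2A window held 36 CpG dinucleotides and 3 GC boxes, the MLLT3 window 24 CpG, 3 GC boxes and 1 CCAAT box, the PSIP1 window 33 CpG and no match to either motif, and the MLLT10 window 15 CpG, 1 GC box and 1 CCAAT box. Over 35116 windows of the same length the median was 14 CpG, 45.0% held a GC box and 34.6% a CCAAT box. The ETS core CCGGAAG, found in 10.3% of all windows, and the TATA box TATAAA, found in 11.5%, matched none of these 4 windows on either strand, nor did the E-box CACGTG (7.26% of all windows), which matched once each in the windows of AFF4 and MLLT1. PSIP1 and MLLT10 have a second window each, with 29 and 45 CpG and 2 GC boxes. CDK9, whose level did not pass the test, has a window with 46 CpG, 2 GC boxes and 1 ETS match. These matches describe letters in the windows and no binding was measured.

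Of the mRNAs of PSIP1 and MEN1, whose proteins help to tie KMT2A to chromatin, that of PSIP1 fell. PSIP1 (LEDGF, ENSG00000164985, chromosome 9, 15464066 to 15510970), which reads methylated lysine 36 of histone H3, was at 75.04, 78.5 and 75.2 CPM in shCONTROL and at 62.1, 61.1 and 61.1 in shBCLAF1. The 2 groups were far apart relative to their spread, a log2 difference of -0.31 (SE 0.04, adjusted p 0.00205). The call of PSIP1 held in all 12 alternatives. The pseudogene PSIP1P1, which can share reads with PSIP1, held 18 to 57 counts per library against at least 1765 for PSIP1. MEN1 (menin, ENSG00000133895, chromosome 11, 64803516 to 64811294), the adaptor between KMT2A and LEDGF, was at 41.8, 35.9 and 31.2 CPM in shCONTROL and at 27.4, 36.02 and 32.0 in shBCLAF1. These ranges overlap, and the 95% interval of the log2 fold change (-0.19) ran from -0.53 to 0.16.

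In the DOT1L complex, the mRNA of the cofactor fell. MLLT10 (AF10, ENSG00000078403, chromosome 10, 21533756 to 21743630), which stimulates DOT1L, was at 113, 117 and 119.7 CPM in shCONTROL and at 94.8, 96.6 and 85.5 in shBCLAF1. Its groups did not overlap, and the log2 fold change was -0.33 (SE 0.06, adjusted p 0.00691, called in all 12 alternatives). The pseudogenes MLLT10P1 and MLLT10P2 were at 0 counts in all libraries. DOT1L (ENSG00000104885, chromosome 19, 2163933 to 2232578), the histone H3 lysine 79 methyltransferase, was at 256, 266 and 264 CPM in shCONTROL and at 242, 247 and 281 in shBCLAF1. The shBCLAF1 libraries fell on both sides of the controls. Its log2 fold change was -0.03 with a 95% interval of -0.18 to 0.13 (adjusted p 0.790), and the sign was positive under total-count scaling (0.026) and without shBCLAF1 replicate 1 (0.014).

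Of the super elongation complex, MLLT3 fell (above), and AFF1, AFF4, MLLT1 and CDK9 did not pass. AFF1 (AF4, ENSG00000172493, chromosome 4, 86935011 to 87141039), a scaffold of that complex and itself a frequent KMT2A fusion partner, was at 275, 268 and 260.1 CPM in shCONTROL and at 242, 247 and 217 in shBCLAF1. Its groups did not overlap, but its log2 fold change of -0.18 (95% interval -0.32 to -0.04) had an adjusted p of 0.0607. Of 12 alternatives 2 called AFF1, DESeq2 with the lowest adjusted p among them (0.0138), and the highest was 0.194. MLLT1 (ENL, ENSG00000130382, chromosome 19, 6210381 to 6279975), the paralogue of MLLT3 that reads acetylated histones, was at 132, 118 and 135 CPM in shCONTROL and at 141, 137 and 148 in shBCLAF1. All shBCLAF1 libraries were above all controls, by little: the log2 fold change was 0.15 (95% interval 0.0032 to 0.30, adjusted p 0.112). Groups that do not overlap were common, at 49.3% of all genes tested, and 6 of the 10 genes of the set had them: 5 lower, where 24.8% of all genes were, and 1 higher, where 24.5% were.

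AFF4 (ENSG00000072364, chromosome 5, 132875395 to 132963634), the other scaffold, was at 119, 118 and 109.6 CPM in shCONTROL and at 114, 114 and 93.7 in shBCLAF1. Only shBCLAF1 replicate 3 lay below all controls, and the 95% interval of the log2 fold change (-0.10) was -0.31 to 0.11. CDK9 (ENSG00000136807, chromosome 9, 127786034 to 127790792), the kinase of P-TEFb, was at 54.1, 55.8 and 52.7 CPM in shCONTROL and at 53.8, 53.6 and 55.002 in shBCLAF1. It had the narrowest interval of the 6 genes that did not pass, -0.10 to 0.10 around a log2 fold change of 0.0029 (adjusted p 0.967), and that sign turned in 6 of 12 alternatives.

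Set against shCONTROL RNA-seq, the RIP addresses which transcripts were more abundant in the precipitate than in total RNA. With no mock precipitation named, RNA bound to BCLAF1, unspecific capture and differences between the 2 kinds of library cannot be told apart. Of the 10 genes 8 were higher in the RIP, PSIP1 was lower, and KMT2A did not pass, by the same test over 16727 genes. Of all genes tested 24.6% were higher, 24.7% lower and 49.2% called either way. RIP and control libraries did not overlap for 8 genes in the higher direction (31.6% of all genes) and 1 in the lower (35.4%), 67.0% of all genes either way. The median log2 fold change was 0.59 over the set and -0.05 over all genes tested. With a minimum log2 fold change of 1 in size, DOT1L alone was enriched and none was depleted, where 11.0% of all genes were enriched and 13.5% depleted. When edgeR's glmTreat tested for changes beyond a log2 of 1, 0 genes of the set passed, also at an unadjusted p under 0.05, and DOT1L had the lowest adjusted p (0.728). The number of calls was 5, 5 and 4 without shCONTROL replicate 1, 2 and 3, and 8 without any 1 RIP replicate. Total counts in place of TMM moved the median of all genes from -0.05 to -0.16, and the set then had 8 calls.

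**Figure D2:**
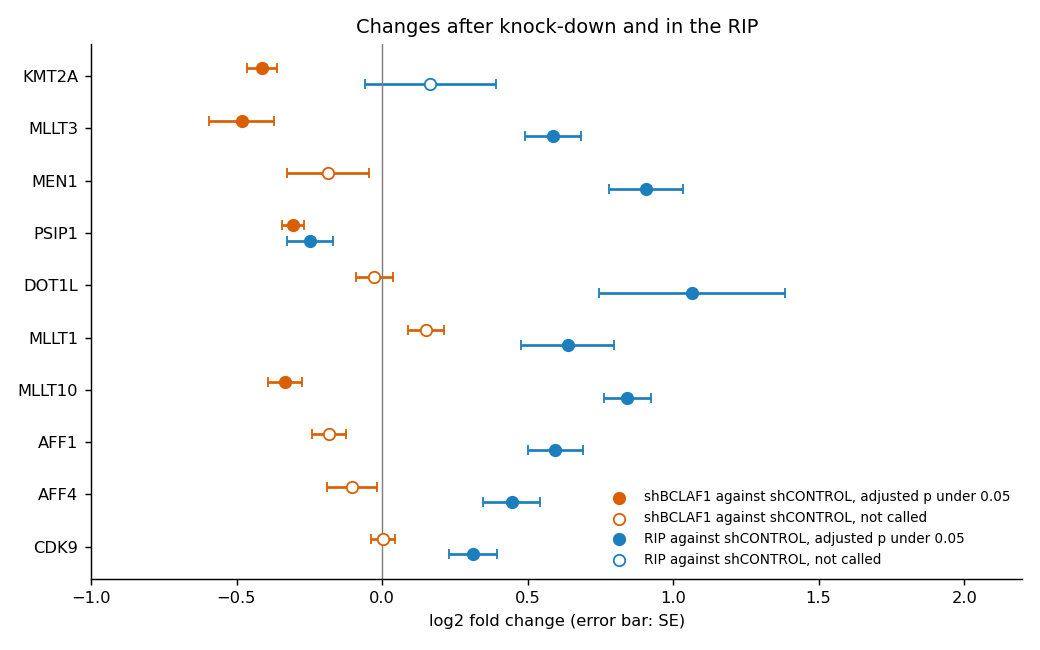
Log2 fold change (x axis, error bars are SE) of each gene of the set in shBCLAF1 against shCONTROL (orange) and in the RIP against shCONTROL (blue); filled points had an adjusted p under 0.05. After knock-down the 4 called genes lie between -0.48 and -0.31, and in the RIP 8 genes lie between 0.31 and 1.06 with PSIP1 at -0.25; both comparisons use the same shCONTROL libraries.

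KMT2A mRNA was at 131, 180.4 and 97.9 CPM in RIP replicates 1, 2 and 3, around the control range of 115 to 128. Replicate 2 was high and replicate 3 below every control. The log2 fold change of 0.17 (95% interval -0.38 to 0.71, adjusted p 0.567) turned to -0.097 without RIP replicate 2. MLLT3 was at 25.1, 22.6 and 26.6 CPM in the RIP, 151% of the control. All RIP libraries lay above all controls, by 0.59 on the log2 scale (SE 0.10, adjusted p 0.00363). The gene in the set with the lowest counts was thus called in all 13 alternatives, whereas KMT2A was called in none.

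MEN1 and PSIP1 went opposite ways. MEN1 was at 69.1, 71.6 and 64.7 CPM in the RIP, 189% of the control, a log2 difference of 0.91 (SE 0.13, adjusted p 0.00210). Its RIP libraries were all well above the highest control, 41.8 CPM. PSIP1 was at 69.6, 62.7 and 61.3 CPM, 84.6% of the control and under every control library. The change, -0.25 on the log2 scale (SE 0.08, adjusted p 0.0408), did not pass when shCONTROL replicate 1, 2 or 3 was left out (adjusted p 0.117, 0.134 and 0.117), nor without RIP replicate 2 or 3 (0.0578 and 0.0666). With shCONTROL and shBCLAF1 averaged as the reference, PSIP1 had a log2 fold change of -0.09 (adjusted p 0.226), the highest p of its 13 alternatives, whose lowest was 0.00534.

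DOT1L had the highest fold of the set and the widest spread. Its level was 474, 825 and 349 CPM in RIP replicates 1, 2 and 3, or 549 ± 247 (SD, n = 3), against 262 ± 5.04 in shCONTROL. All RIP libraries were above all controls, but replicate 2 stood well above replicates 1 and 3. The log2 fold change of 1.06 (SE 0.32, adjusted p 0.0339) became 0.64 without RIP replicate 2 (adjusted p 0.0172). It did not pass when shCONTROL replicate 1, 2 or 3 or RIP replicate 1 was left out (adjusted p 0.101, 0.0971, 0.0970 and 0.0510). MLLT10, its cofactor, was at 226, 201 and 205 CPM, 180% of the control, a log2 difference of 0.84 (SE 0.08) and the smallest adjusted p of the set, 6.10e-04. Its 3 RIP libraries differed little, and it was called in all 13 alternatives.

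Besides MLLT3, the super elongation complex genes AFF1, AFF4, MLLT1 and CDK9 were higher in the RIP. AFF1 was at 430.25, 416 and 373 CPM, 152% of the control (log2 fold change 0.59, SE 0.09, adjusted p 0.00319). AFF4 was at 154, 173 and 147 CPM, 137% of the control (log2 fold change 0.44, SE 0.10, adjusted p 0.0107), and its call was lost without shCONTROL replicate 3 (adjusted p 0.0572). Both scaffolds lay above all controls in each RIP library. MLLT1 was at 184, 245 and 173 CPM, 156% of the control (log2 fold change 0.64, SE 0.16, adjusted p 0.0184). CDK9 was at 65.0, 72.5 and 65.2 CPM, 125% of the control (log2 fold change 0.31, SE 0.08, adjusted p 0.0221). Replicate 2 was again the highest for both, with no overlap with the controls. Neither passed when shCONTROL replicate 1, 2 or 3 was left out (adjusted p 0.0570, 0.0727 and 0.0542 for MLLT1, and 0.0818, 0.0705 and 0.0953 for CDK9). CDK9 also lost its call under total counts (adjusted p 0.0895).

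The spread among RIP replicates was uneven over the set. The highest RIP library exceeded the lowest 2.40 times for DOT1L and 1.87 times for KMT2A, which 92.8% and 82.8% of all genes tested stayed under. For MLLT10, MEN1, PSIP1, CDK9, AFF1, MLLT3 and AFF4 the ratio was 1.10 to 1.20, and MLLT1, at 1.44, was near the median of all genes, 1.41. RIP replicate 2 was the highest of the 3 for 6 of the 10 genes, against 33.5% of all genes tested.

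In 5 pairs, genes of the set were also set against a paralogue, as the ratio of counts within each library, which does not depend on how libraries are scaled. These pairs were chosen after their values were seen, 10 comparisons were made, and with 3 libraries against 3 the exact two-sided permutation test cannot go below 0.1. After knock-down KMT2B, the closest paralogue of KMT2A, changed by 0.26 on the log2 scale (SE 0.05, adjusted p 0.0122) where KMT2A had -0.41. The log2 ratio of KMT2B to KMT2A went from 0.11 ± 0.10 in the controls up to 0.78 ± 0.07 after knock-down (SD, n = 3 each, exact permutation p 0.1, adjusted 0.167), with no overlap. HDGFL2, a paralogue of PSIP1, changed by 0.42 on the log2 scale (SE 0.06, adjusted p 0.00431), and its log2 ratio to PSIP1 went from -0.82 ± 0.05 to -0.09 ± 0.11 (SD, n = 3 each, exact permutation p 0.1, adjusted 0.167). For MLLT1 to MLLT3 it went from 2.97 ± 0.12 to 3.62 ± 0.25 (SD, n = 3 each, exact permutation p 0.1, adjusted 0.167), again with no overlap.

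**Figure D3:**
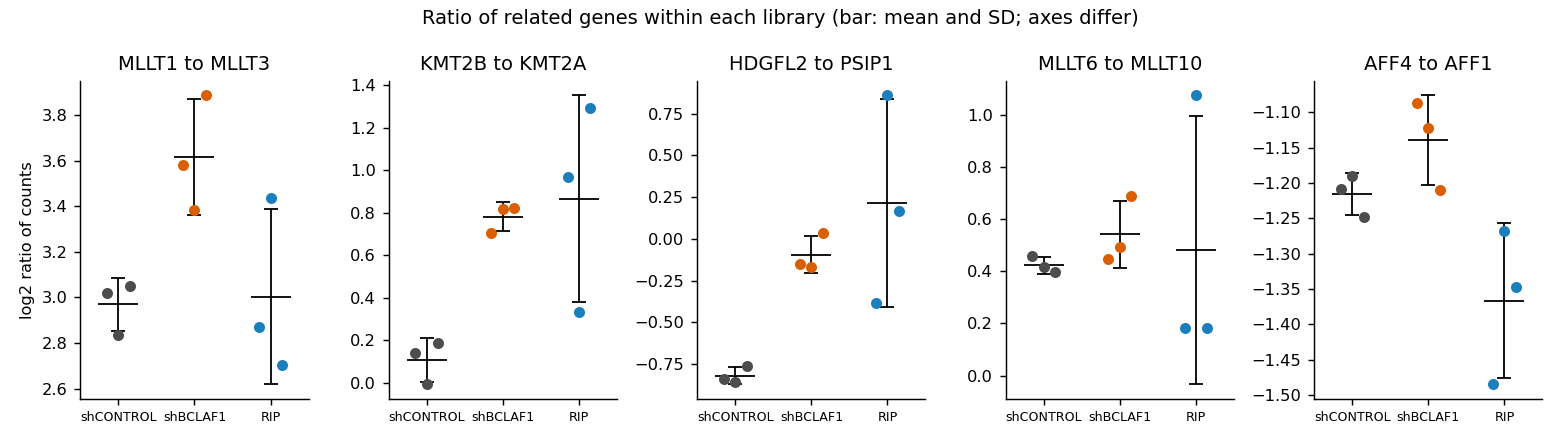
Log2 ratio of counts of 2 related genes within each library (y axis, scales differ and do not start at 0) in the 3 groups; points are replicates 1 to 3 from left to right, and black bars show mean and SD. The first 3 pairs do not overlap between shCONTROL and shBCLAF1, with mean differences of 0.65, 0.67 and 0.73, whereas MLLT6 to MLLT10 and AFF4 to AFF1 overlap. All pairs were chosen after their values were seen. The exact permutation p of the first 3 was 0.1 each, the lowest possible here (adjusted 0.167).

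The other pairs kept nearer to the control after knock-down. MLLT6 (AF17), the paralogue of MLLT10, fell too, with a log2 fold change of -0.22 (adjusted p 0.00681), and its ratio to MLLT10 differed by 0.12 (exact permutation p 0.2). The ratio of AFF4 to AFF1 differed by 0.08 (exact permutation p 0.3). In the RIP the ratios of KMT2B to KMT2A and HDGFL2 to PSIP1 were higher than in shCONTROL by 0.76 and 1.03, and that of AFF4 to AFF1 lower by 0.15, each with no overlap (exact permutation p 0.1). MLLT1 to MLLT3 and MLLT6 to MLLT10 differed by 0.03 and 0.06 in the RIP, with signs that turned without RIP replicate 2 (-0.18 and -0.24).

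Among the other genes of the pathway, 43 of 44 listed genes were tested after knock-down, with 11 higher, 11 lower and 21 not called, and a median log2 fold change of 0.03. That is 22 calls of 43, above the background of 32.3% of all genes tested (15.5% higher and 16.9% lower). The lists were chosen with earlier results of these data known. The count was 12 without shCONTROL replicate 3 and 5 in a fit of all 9 libraries. In the complex that KMT2A and KMT2B share, 3 of 8 genes rose and 2 fell. RBBP5, a core subunit, had a log2 fold change of -0.41, HCFC2 0.41 and TASP1, the protease that cleaves KMT2A, 0.27. Of the other KMT2 family methyltransferases 3 of 5 rose and none fell: KMT2D (0.46), SETD1A (0.24) and KMT2C (0.18).

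**Figure D4:**
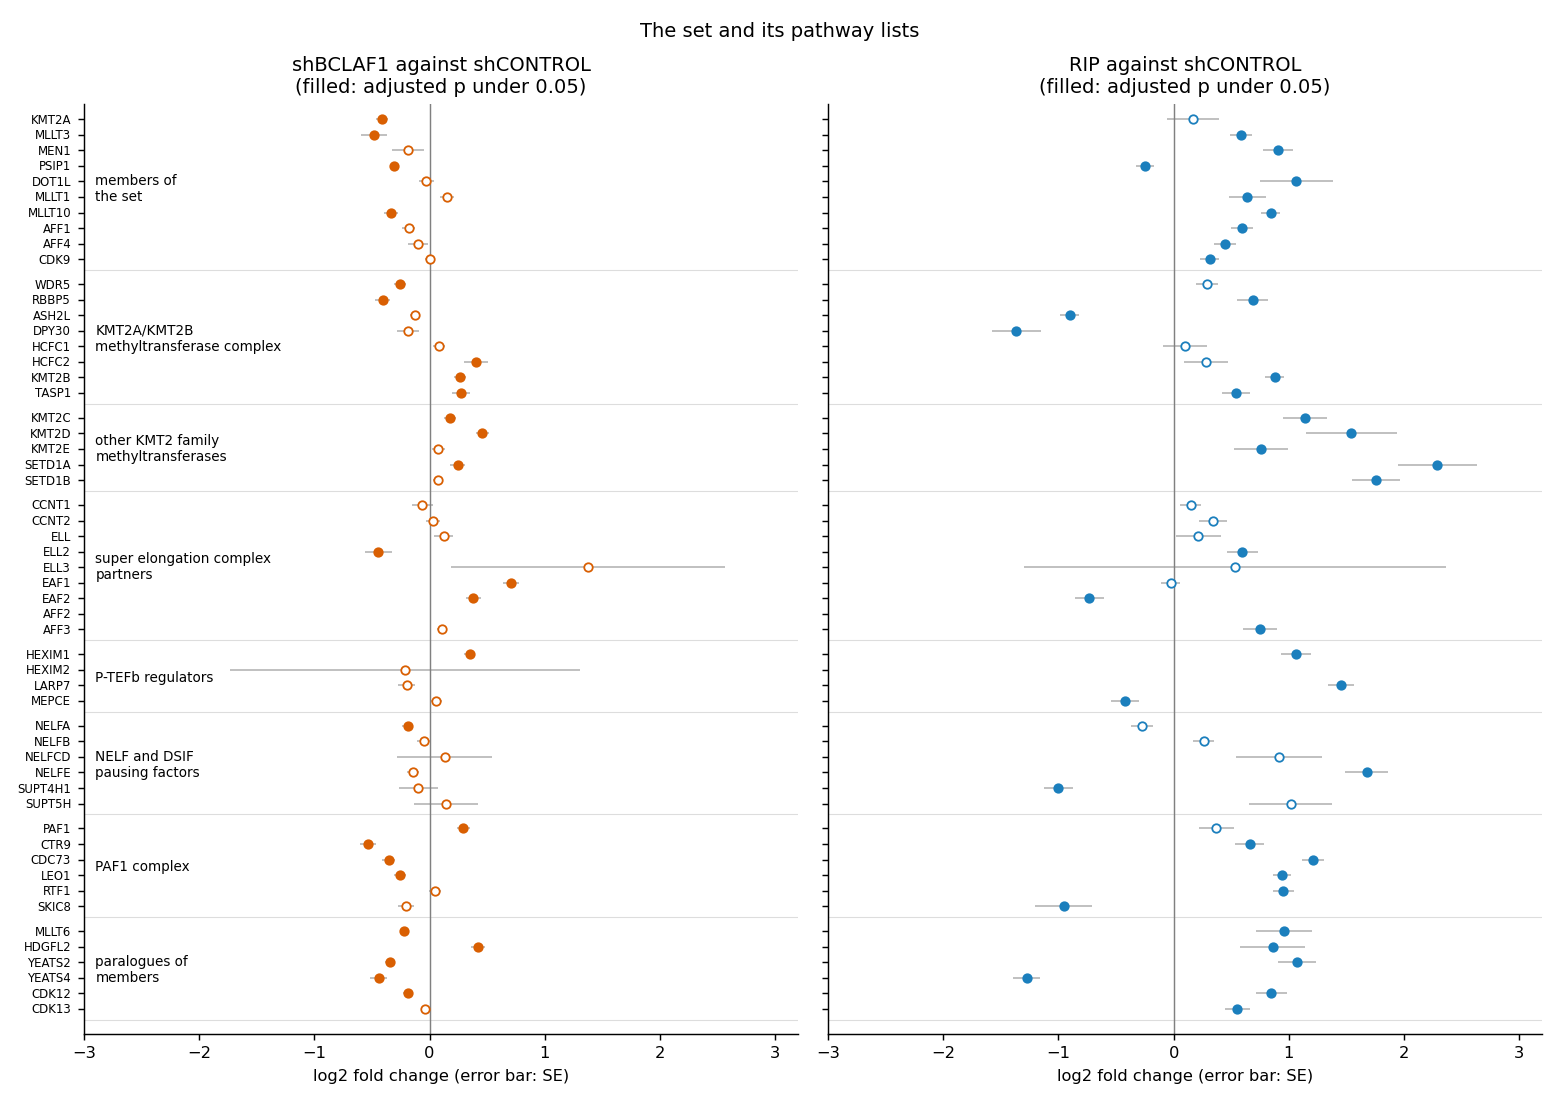
Log2 fold change (x axis, grey error bars are SE) of the set and of the 7 pathway lists after knock-down (left) and in the RIP (right); filled points had an adjusted p under 0.05, and a gene without a point was not tested. Calls after knock-down lie on both sides of 0 in 4 of the 7 lists, with EAF1 the highest call at 0.71, and in the RIP all 5 other KMT2 family genes lie between 0.75 and 2.29.

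The lists of elongation factors held calls in both directions after knock-down, where 15.5% of all genes were higher, 16.9% lower and 32.3% either way. The calls of the super elongation complex partners, P-TEFb regulators and pausing factors, 3 of 8, 1 of 4 and 1 of 6, stood near or under that share. Of 8 super elongation complex partners tested 2 rose and 1 fell: EAF1 (log2 fold change 0.71) and EAF2 (0.38), which bind the elongation factors of the ELL family, and ELL2 (-0.45), one of that family. Among the P-TEFb regulators HEXIM1, the inhibitor of CDK9 held with 7SK RNA, rose (0.35), and 3 of 4 did not pass. NELFA (-0.19) was the 1 of 6 pausing factors called. In the PAF1 complex, which binds both polymerase and KMT2A, 3 of 6 fell, CTR9 (-0.54), CDC73 (-0.35) and LEO1 (-0.26), and PAF1 rose (0.29). Of the paralogues 4 of 6 fell, among them YEATS4 (-0.44) and YEATS2 (-0.34), which encode YEATS domain proteins, and HDGFL2 rose.

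In the RIP 42 of the 44 listed genes were tested, with 22 higher, 7 lower and a median log2 fold change of 0.63, near the 0.59 of the set. Over all genes tested 24.6% were higher, 24.7% lower and 49.2% either way, with a median of -0.05, and 11.0% were enriched. All 5 other KMT2 family genes were higher and 4 of them were enriched, led by SETD1A (2.29), SETD1B (1.75) and KMT2D (1.54). All 3 had their highest level in RIP replicate 2 and spread widely, KMT2D at 1329 ± 744 CPM, SETD1A at 486 ± 233 and SETD1B at 465 ± 128 (SD, n = 3 each). In the complex that KMT2A and KMT2B share, 3 of 8 genes were higher, KMT2B (0.88), RBBP5 (0.69) and TASP1 (0.54). There 2 were lower, DPY30 (-1.36) and ASH2L (-0.90), and 3 were not called. LARP7 (1.45) and HEXIM1 (1.06), which hold CDK9 inactive with 7SK RNA, were enriched, and MEPCE (-0.42), which caps 7SK, was lower. In the PAF1 complex 4 of 6 were higher, with CDC73 (1.21) and RTF1 (0.95) leading, and SKIC8 was lower (-0.95). NELFE was higher (1.67) and SUPT4H1 lower (-0.999), and 4 of the 6 pausing factors did not pass. Of the super elongation complex partners AFF3 (0.75) and ELL2 (0.60) were higher and EAF2 lower (-0.73). Among the paralogues, YEATS2 (1.07) and MLLT6 (0.95) were among 5 that were higher, and YEATS4 (-1.27) was lower.

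Both comparisons share the shCONTROL libraries. Side by side, MLLT3 and MLLT10 fell after knock-down (-0.48 and -0.33) and were higher in the RIP (0.59 and 0.84), PSIP1 was lower in both (-0.31 and -0.25), and KMT2A fell (-0.41) with no call in the RIP (0.17). MEN1, DOT1L, AFF1, AFF4, MLLT1 and CDK9 were higher in the RIP with no call after knock-down. The RIP calls of PSIP1, DOT1L, MLLT1 and CDK9 were lost when any 1 shCONTROL replicate was left out. So was the call of MLLT3 after knock-down, and AFF4 lost its RIP call without shCONTROL replicate 3. The share of all genes with each of these combinations was not counted.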

How the data were processed

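The table deposited by the authors gives expected counts (estimated counts) for each gene in the 9 libraries, and no scaling between libraries was applied to it. STAR 2.7.11b, StringTie 2.2.3 and hg38 are named in the submitters' processing notes, with no role or order, and the annotation and the strand setting of the counting are not given in the sources used here, so reads of a gene and of an antisense partner may not be told apart. The values were whole numbers, so no rounding was needed. An entry that named no gene (2.18% to 3.75% of the counts of 8 libraries, 0 in RIP replicate 1) was left out. The 3 counts taken as floor equal 0.0819 to 0.116 CPM, which covers counting error only.

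Each comparison was fitted on its own 6 libraries over all genes, with edgeR 4.0.16 in R 4.3.3: default filter on low counts, TMM, prior count of 2, quasi-likelihood F-test, no covariate besides the group, Benjamini-Hochberg adjustment and a threshold of 0.05. DESeq2 1.42.0, other scalings, no filter, a replicate block, 1 fit of all libraries and fits without 1 library were the alternatives. Standard errors came from the coefficient and its F statistic, and 95% intervals from the t distribution with the degrees of freedom of the fit. The fitting was tested on simulated counts. The labels name no batch that divides the 9 libraries. The rule named every gene of the set, BCLAF1, up to 3 called genes with the largest change per pathway list and comparison, and neighbours with a mean of at least 10 counts. 1 gene of the pathway lists is not reported here and is left out of the counts. The set and the lists were chosen with earlier results of these data known. KMT2B, LEO1, MLLT10P1, MLLT10P2, the marker genes and the paralogue pairs were named outside that rule, after their values were seen.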

Additional observations from a re-analysis of the deposited data

How the results depend on the processing

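Over the 12 alternatives to each knock-down result and the 13 to each RIP result, 105 of 120 and 107 of 130 log2 fold changes of the set kept their sign and their side of the threshold. After knock-down 5 lost a call, 2 gained one and 8 turned sign, and in the RIP 22 lost a call and 1 turned sign. The sign changes after knock-down were all of genes near 0. For CDK9 the values were -0.0011 with DESeq2 size factors, -0.0080 without a filter on low counts, -9.47e-04 with DESeq2, -9.02e-04 with 1 fit of all 9 libraries, -0.011 without shCONTROL replicate 3 and -0.0069 without shBCLAF1 replicate 3. For DOT1L they were 0.026 with total counts and 0.014 without shBCLAF1 replicate 1. In the RIP, KMT2A was at -0.097 without RIP replicate 2, the ratio of MLLT1 to MLLT3 at -0.032 without shCONTROL replicate 2 and -0.18 without RIP replicate 2, and that of MLLT6 to MLLT10 at -0.24 without RIP replicate 2. With 1 fit of all 9 libraries, 5 pathway genes and, over all genes, 1129 higher and 1318 lower genes were called after knock-down, against 22, 2625 and 2859. With 1 library left out, 3 to 4 genes of the set and 12 to 19 pathway genes were called after knock-down, and 4 to 8 genes of the set in the RIP, with 0 to 1 enriched. Such fits hold fewer samples. Over them the log2 fold change ran from -0.011 to 0.031 for CDK9 and -0.096 to 0.014 for DOT1L after knock-down, and in the RIP from -0.097 to 0.36 for KMT2A, -0.18 to 0.18 for MLLT1 to MLLT3 and -0.24 to 0.21 for MLLT6 to MLLT10. The number of enriched genes of the set in the RIP was 0 with total counts, 0 with glmTreat, and 3 with shCONTROL and shBCLAF1 averaged as the reference.

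No clear pairing of libraries by replicate number was seen, though 3 libraries per group cannot settle whether there was one. Deviations from the group means of same-numbered libraries correlated at 0.014 to 0.067 after knock-down and at -0.023 to 0.0071 in the RIP. Not every library correlated best with its own number. With the replicate number as a block, 5 genes of the set were called in the RIP and 0 enriched, and 5 after knock-down, where AFF1 was added (adjusted p 0.0473).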

Other observations

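The genomic span of the 10 genes runs from 4759 bases for CDK9 to 280831 for MLLT3. As a description over these 10 genes, which share the libraries, Spearman's rho of span and log2 fold change was -0.59 after knock-down and 0.055 in the RIP. MLLT3, with the longest span, had the lowest fold change after knock-down, and CDK9, with the shortest, stood next to 0. MEN1, at 7779 bases, and AFF1, at 206029, had nearly the same log2 fold change after knock-down (-0.19 and -0.18). MEN1 had the second highest fold change in the RIP. A link of span and change was not tested, and rho was not computed over all genes.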
